A study of Mus musculus with 6 samples.

Results

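The Serpina3 genes of the mouse form a cluster of serine protease inhibitors, and 7 of them (Serpina3c, Serpina3f, Serpina3g, Serpina3h, Serpina3i, Serpina3m and Serpina3n) are described here in bone cells of mice treated with dexamethasone, a synthetic glucocorticoid. The family was picked on the same comparison that is described, because Serpina3m was near 0 in the control libraries and high with dexamethasone. The members' values are therefore a description with no test, and no p-value is given for them. Of the 7 members, 5 had a row among the 29616 genes of the table, and Serpina3f and Serpina3g were not analysed here.

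RNA sequencing was carried out on 3 control libraries and 3 dexamethasone libraries of mice labelled C57BL/6, which the study's methods give as C57BL/6J. The samples were labelled as bone cells, which by the study's text were isolated as Osteocalcin-positive cells after the marrow was removed. Dexamethasone was given each day at 0.08 µg/g from 8 weeks of age over 4 weeks, and the controls of this model received saline. The sources used here do not say how many mice went into each library. The values were normalized counts, that is reads per gene divided by a size factor for each library, from which whole reads could be recovered. The recovered totals were 83025489, 81186636 and 88354925 reads in control replicates 1, 2 and 3, and 89910728, 75526030 and 72596611 reads in dexamethasone replicates 1, 2 and 3. A single read was worth 0.879 to 1.16 normalized counts, and a count of 0 allows up to 3 reads in a library, a limit that covers counting error only.

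Serpins are inhibitors that present a reactive centre loop to a target protease, which cleaves the loop and is trapped in a covalent complex. Humans carry a single SERPINA3 gene, which encodes α1-antichymotrypsin, an acute-phase protein of the liver that inhibits cathepsin G and chymase. In mice the gene has expanded into many copies whose reactive loops differ, so that their targets differ too. Glucocorticoids and cytokines that signal through gp130 are known inducers of acute-phase genes in liver.

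Serpina3m (ENSMUSG00000079012) had 1, 1 and 0 reads in control replicates 1, 2 and 3, against 740, 547 and 532 reads in dexamethasone replicates 1, 2 and 3. In normalized counts these were 0.918, 0.979 and 0 with control treatment and 706, 596 and 619 with dexamethasone. Each dexamethasone library was far above each control library, and the control values were within the limit of 3 reads. The means were 0.632 ± 0.548 (SD, n = 3) and 640 ± 57.9 (SD, n = 3) normalized counts. Because the control group held only 2 reads, the ratio of 1046 between the groups, corrected for depth, had an exact 95% counting interval of 289 to 8642, and it was 680 (188 to 5615) without control replicate 3. On the log2(normalized count + 1) scale the difference was 8.68 (limma standard error 0.279), and it ranged from 6.84 (5 added in place of 1) to 10.01 (DESeq2 on the recovered reads) over 17 alternatives.

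Serpina3n (ENSMUSG00000021091), which encodes a secreted inhibitor of cathepsin G, neutrophil elastase and granzyme B, was already detected in the control libraries. It had 5, 10 and 10 reads in control replicates 1, 2 and 3 and 482, 397 and 402 reads in dexamethasone replicates 1, 2 and 3. All 3 control libraries were above the limit of a count of 0, unlike those of Serpina3m, and the groups did not overlap. Its mean was 7.72 ± 2.76 (SD, n = 3) normalized counts in control libraries and 453 ± 18.2 (SD, n = 3) with dexamethasone. The log2 difference was 5.76 (limma standard error 0.217), and the ratio of reads corrected for depth was 58.9, with a counting interval of 39.7 to 91.4.

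Serpina3h and Serpina3i lie next to each other in the cluster and were both at 0 reads in all 3 control libraries. Serpina3h (ENSMUSG00000041449), annotated as a transcribed pseudogene in GENCODE M21, had 15, 18 and 15 reads in dexamethasone replicates 1, 2 and 3, or 17.1 ± 2.67 (SD, n = 3) normalized counts. Against the value of 3 reads in each control library, its mean was at least 6.17-fold higher. Serpina3i (ENSMUSG00000079014) had 10, 5 and 1 reads in dexamethasone replicates 1, 2 and 3, and its mean was at least 1.94-fold higher, or at least 1.19-fold without dexamethasone replicate 1. The dexamethasone libraries of Serpina3h were close together, whereas those of Serpina3i were spread and replicate 3 was within the limit of a count of 0.

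Serpina3c (ENSMUSG00000066361) was the member with the opposite direction. It had 6, 12 and 9 reads in control replicates 1, 2 and 3 and 3, 0 and 1 reads in dexamethasone replicates 1, 2 and 3. All control values were above all dexamethasone values, but the dexamethasone values were within the limit of 3 reads. The ratio of dexamethasone to control reads, corrected for depth, was 0.17, with a counting interval of 0.0433 to 0.489, and it was 0.0677 (0.00165 to 0.411) without dexamethasone replicate 1. The log2 difference was -2.16 (standard error 0.630), and with 5 added in place of 1 it was -1.08.

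Genes averaging 10 or more normalized counts across the 6 libraries were compared with limma on log2(normalized count + 1). A gene was called where the adjusted p was under 0.05 and the log2 fold change was 1 or more upward or downward. Of the 7 members, 2 (Serpina3m and Serpina3n) entered this test, both only through their dexamethasone values, and both were called, beside 22.3% of the 17442 genes tested. When every gene of the table was tested, all 5 members with a row were called, beside 18.0% of genes. The groups did not overlap for these 5 members, as for 52.3% of all genes in the table. Since the family was picked on this contrast, nothing is read from these counts.

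**Figure D1:**
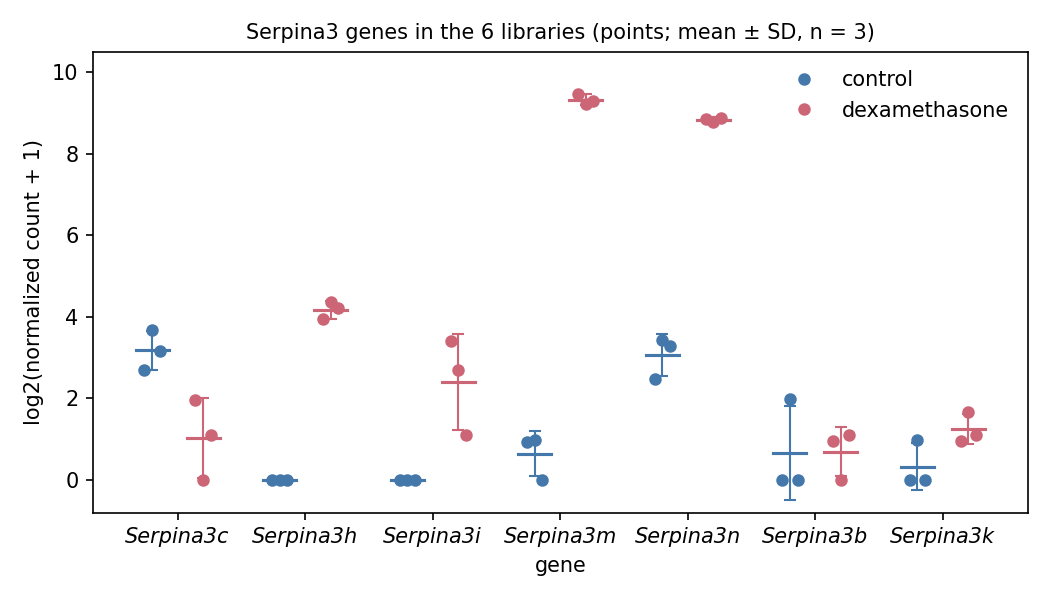
Each point is a library, with log2(normalized count + 1) on the vertical axis and the Serpina3 genes that have a row on the horizontal axis; lines and bars give the mean ± SD of 3 control (blue) or 3 dexamethasone (red) libraries. Serpina3m and Serpina3n are highest in the dexamethasone libraries, at means of 640 and 453 normalized counts, and Serpina3c is lower with dexamethasone.

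Levels of different genes were compared per kilobase of the longest annotated transcript. In dexamethasone libraries the order was Serpina3m at 386 ± 34.9, Serpina3n at 219.6 ± 8.83, Serpina3h at 13.8 ± 2.16, Serpina3i at 2.45 ± 1.90 and Serpina3c at 0.606 ± 0.650 normalized counts per kilobase (SD, n = 3). The ranges of Serpina3i and Serpina3c overlapped, and the other neighbours in this order did not. Per kilobase of the median transcript length, 1450.5 bases, Serpina3i was at 3.71. In control libraries Serpina3c at 3.79 ± 1.42 and Serpina3n at 3.74 ± 1.34 normalized counts per kilobase did not differ beyond their spread, and Serpina3m followed at 0.381 ± 0.331. The level of Serpina3m with dexamethasone was close to that of the median tested gene, since 49.5% of tested genes with a known length were higher, whereas 99.7% were higher in control libraries. For Serpina3n the shares were 57.0% with dexamethasone and 96.8% in control libraries. Serpina3m and Serpina3n together took nearly all reads of the family with dexamethasone, where Serpina3m made up 59.2%, 56.6% and 55.9% of the members' reads in replicates 1, 2 and 3.

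Copies of a gene family can exchange reads, so the sequence that each member shares with other genes was measured on all GENCODE M21 transcripts. Of the 75-base positions of Serpina3m, 90.3% occurred in no other gene. Its nearest relative was Serpina3k, with 90.8% identity over the aligned bases, a longest identical run of 154 bases and 146 shared 75-base positions. Serpina3k is the only gene sharing exon bases with Serpina3m on the same strand, over 3.49% of the exon bases of Serpina3m. Serpina3k itself had 0, 1 and 0 reads in control replicates 1, 2 and 3 and 1, 2 and 1 reads in dexamethasone replicates 1, 2 and 3, although 92.6% of its own 75-base positions occurred in no other gene. This closest copy thus stayed within the limit of 3 reads in the libraries where Serpina3m had 532 to 740 reads.

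Serpina3n was more distinct, with 98.5% of its 75-base positions in no other gene and 81.5% identity to Serpina3m. The remaining positions were shared with Serpina3g and with the pseudogene Serpina3e-ps. Serpina3c shared 7 of its 75-base positions with Serpina3m and none with other genes, which left 99.7% specific. Of the 5 members with a row, Serpina3h had the lowest specific share at 75 bases, 89.0%, followed by Serpina3m at 90.3% and Serpina3i at 93.4%, and Serpina3h and Serpina3i shared 91 such positions with each other. Serpina3h also shared 104 positions with Serpina3g and 52 with Serpina3f, both not analysed here. How reads that match several copies were treated is not given in the sources used here.

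**Figure D2:**
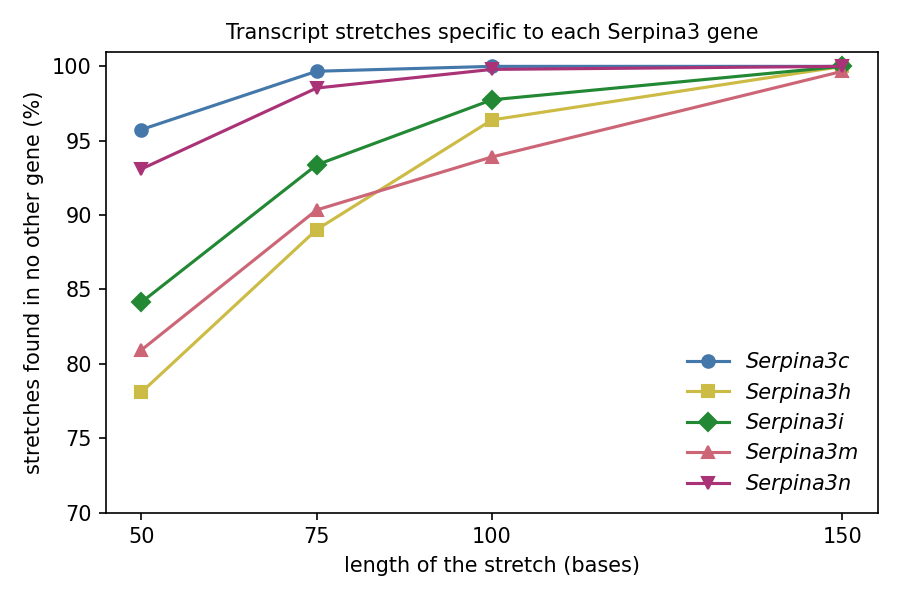
The vertical axis gives the percentage of transcript stretches of each Serpina3 member that occur in no other annotated gene, and the horizontal axis the length of the stretch in bases. At 50 bases the values lie between 78.1% for Serpina3h and 95.7% for Serpina3c, and at 150 bases Serpina3m, at 99.7%, is the only one of the 5 below 100%.

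The sequences before the start of Serpina3c and Serpina3n are shown because these members had opposite directions. Of the 7 members, 5 had an entry in the RefSeq promoter table (GRCm38.p6): Serpina3c, Serpina3f, Serpina3g, Serpina3i and Serpina3n. The 250 bases before the start were 92.7% identical between Serpina3c and Serpina3n, with 18 different bases among 247 aligned. The Serpina3c window lies at chr12:104153873-104154122 on the minus strand and the Serpina3n window at chr12:104406458-104406707 on the plus strand. Capitals mark the bases that differ from, or have no partner in, the other gene.
Serpina3c: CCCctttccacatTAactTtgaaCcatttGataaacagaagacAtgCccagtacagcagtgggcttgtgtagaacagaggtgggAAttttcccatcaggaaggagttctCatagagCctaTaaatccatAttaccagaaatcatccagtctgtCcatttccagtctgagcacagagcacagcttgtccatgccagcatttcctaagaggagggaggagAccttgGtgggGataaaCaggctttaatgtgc
Serpina3n: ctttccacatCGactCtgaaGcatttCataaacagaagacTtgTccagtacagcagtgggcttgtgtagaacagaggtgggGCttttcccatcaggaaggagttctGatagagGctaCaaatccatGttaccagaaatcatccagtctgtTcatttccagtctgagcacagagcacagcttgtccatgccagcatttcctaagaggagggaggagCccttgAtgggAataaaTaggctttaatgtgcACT
The longest run of identical bases was 64, and the identity of the Serpina3i window to that of Serpina3n was 71.2%. The dexamethasone to control ratios were 0.17 for Serpina3c, with a counting interval of 0.0433 to 0.489, and 58.9 for Serpina3n. The dexamethasone values of Serpina3c were within the limit of 3 reads. The part of the upstream sequence in these ratios was not tested.

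The same windows were searched on both strands for motifs of factors that act on acute-phase genes. Serpina3h, Serpina3k and Serpina3m had no entry and were not searched. The palindromic glucocorticoid receptor element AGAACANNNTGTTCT was found in 3 of 32851 promoters and in no Serpina3 window searched. A single arm of it, AGAACA, was found in 16.1% of all promoters, and Serpina3c, Serpina3n, Serpina3i and 1 of the 2 Serpina3f windows each held 1 match. The windows of Serpina3a, Serpina3b and Serpina3j, which are not members, also held 1 match each. The STAT element TTCNNNGAA, present in 7.02% of promoters, was found in the windows of Serpina3f, Serpina3g and Serpina3i. The C/EBP element TTGCGCAA, present in 0.164% of promoters, was found in none of them. The TATA box letters TATAAA, present in 12.4% of promoters, were found in the windows of Serpina3c and of 1 Serpina3f entry, and not in that of Serpina3n. They were also found in those of Serpina3a and Serpina3b. The AGAACA matches of the members with a row (capitals) are shown with their neighbouring bases (GRCm38.p6), at chr12:104154035-104154064 (minus strand), chr12:104406513-104406542 (plus strand) and chr12:104262946-104262975 (plus strand).
Serpina3c: gtgggcttgtgtAGAACAgaggtgggaatt
Serpina3n: gtgggcttgtgtAGAACAgaggtggggctt
Serpina3i: tggtttgtatttAGAACAgtaaggggtttt
The stretch before and after the match was alike in Serpina3c and Serpina3n. A match is a description of letters and not of a binding site.

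Of the 4 other Serpina3 genes, Serpina3b and Serpina3k had a row and Serpina3a and Serpina3j were not analysed here. Serpina3b had 0, 3 and 0 reads in control replicates 1, 2 and 3 and 1, 0 and 1 reads in dexamethasone replicates 1, 2 and 3. Serpina3b and Serpina3k, a kallikrein-binding serpin of the liver, thus did not exceed 3 reads in any library, and no difference was detectable at this depth. Of the 14 other clade A serpins, which include the α1-antitrypsin (Serpina1) genes, 10 had a row and none reached the mean needed for the test. Serpina1f, chosen after its values were seen, had 1, 0 and 0 reads in control replicates 1, 2 and 3 and 17, 13 and 10 reads in dexamethasone replicates 1, 2 and 3. It was the only one of these 10 called when limma was run on every gene of the table. Its ratio of reads corrected for depth was 46.0, with a counting interval of 7.79 to 1862 because the control group held 1 read.

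On chromosome 12 the clade A serpins follow each other, and the 10 nearest protein-coding genes, 5 on each side, were looked up after the members' values were seen. Of these, 9 were tested and 3 were called with limma, beside 22.3% of the 17442 genes tested. Syne3, which encodes a nuclear envelope protein, rose from 3228 ± 50.6 to 9859 ± 360.0 normalized counts (SD, n = 3), or by 1.61 on the log2 scale (limma adjusted p = 3.84e-22). Clmn rose by 1.19 (limma adjusted p = 1.16e-12) and the interferon-induced Ifi27l2a fell by 1.46 on the log2 scale (limma adjusted p = 0.000518), each with all 3 libraries of a group on the same side. Gsc and Dicer1, the nearest genes on the side of Serpina3n, were at log2 fold changes of -0.33 and 0.25, under the cut-off. Among the 9 tested genes the log2 fold changes lay between -1.46 and 1.61, against 8.68 and 5.76 for Serpina3m and Serpina3n. Because the family was picked for a large value in this contrast, nothing is read from that gap.

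Serpins outside clade A included genes called in both directions. Of 39 such genes, 15 were tested, of which 3 were called higher, 2 lower and 10 in neither direction. Their median log2 fold change was -0.26, against 0.000712 for all genes tested, of which 11.7% were called higher and 10.6% lower. These are also the values to set beside the other gene lists. Serpinb2, which encodes plasminogen activator inhibitor 2, rose from 15.6 ± 6.47 to 3362 ± 132 normalized counts (SD, n = 3), or by 7.73 on the log2 scale (limma adjusted p = 1.01e-22). Serpinb1a, an inhibitor of neutrophil elastase and cathepsin G, as Serpina3n is, fell by 2.15 (limma adjusted p = 1.99e-20). Serpinb8 rose by 1.21 and Serpinb6b, chosen after its values were seen, fell by 1.27 (limma adjusted p = 9.87e-15 and 2.12e-06). In each of these 4 genes the 3 libraries of one group lay beyond those of the other. The abundant Serpinf1 (pigment epithelium-derived factor) and Serpinh1 (the collagen chaperone HSP47) were at -0.26 and -0.77, under the cut-off. Serpinb2 shares 12.4% of its exon bases with Serpinb10 on the same strand, and Serpinb10 had at most 1 read in a library.

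The proteases listed as candidate targets of Serpina3 proteins were mostly scarce. Of 17 genes, 12 had a row and 5 were tested, with a median log2 fold change of -0.07. None was called by limma, edgeR or DESeq2. An unadjusted limma p under 0.05 was found for 2 of them, and for at least 12645 of the 17442 genes tested. Cathepsin G (Ctsg), chosen after its values were seen, had 9, 6 and 5 reads in control replicates 1, 2 and 3 and 11, 6 and 5 reads in dexamethasone replicates 1, 2 and 3. Other known targets, chosen in the same way, were also low, with 3 to 9 reads per library for neutrophil elastase (Elane) and at most 1 for chymase (Cma1). Granzyme B (Gzmb) was not analysed here. The lysosomal Ctsb was at 53473 ± 2417 and 53657 ± 2528 normalized counts (SD, n = 3), with overlapping groups and a sign of the difference that changed with the scaling. Ctsl was at 29396 ± 699 and 16924 ± 812 normalized counts (SD, n = 3), or -0.80 on the log2 scale (limma adjusted p = 1.53e-15), under the cut-off. Ctsl overlaps Gm47123 on the other strand over 26.8% of its exon bases and Gm49230 on its own strand over 6.09%, Ctsb overlaps Fdft1 on the other strand over 12.8%, and the strand setting of the count is not given in the sources used here.

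Of 32 acute-phase and gp130 genes, 22 were tested, with 10 called higher, 4 lower and 8 in neither direction, and a median log2 fold change of 0.44. Timp1, an inhibitor of matrix metalloproteinases, rose from 7585 ± 113 to 147960 ± 8819 normalized counts (SD, n = 3), or by 4.28 on the log2 scale (limma adjusted p = 1.97e-29). Cp, which encodes ceruloplasmin, and Cebpb, a transcription factor of acute-phase genes, rose by 1.72 and 1.30 (limma adjusted p = 1.66e-23 and 1.21e-17). Il6ra, chosen after its values were seen, rose by 2.18 (limma adjusted p = 2.62e-20). Lifr, a receptor subunit that pairs with gp130, fell by 1.38 (limma adjusted p = 2.29e-21). The other 3 called lower were picked with their values in view. The plasma protein genes Hpx and Itih3 fell by 1.35 and 3.25 (limma adjusted p = 1.09e-05 and 1.47e-06), and the log2 fold change of Itih3 was -2.11 with 5 added in place of 1. Il11, at -1.08, was at -0.997 after quantile normalization and -0.877 with 5 added in place of 1. The gp130 gene Il6st and its transducer Stat3 were at 0.09 and -0.28, under the cut-off, and Il6st was at -0.02 after rescaling to the same total and -0.04 after quantile normalization. Other plasma protein genes, Hp and Orm1, chosen after their values were seen, were called higher, with 15, 11 and 14 reads against 1216, 956 and 938 for Hp, and 2, 0 and 3 reads against 341, 294 and 271 for Orm1. Orm1 entered the test only through its dexamethasone values, so its call is a description. Cebpb overlaps Tmem189 on the opposite strand over 20.7% of its exon bases.

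All 18 listed glucocorticoid response genes were tested, with 12 called higher, none lower and 6 in neither direction by limma. The number called by edgeR and DESeq2 was also 12. All 18 had an unadjusted limma p under 0.05, as did at least 12645 of the 17442 genes tested. Their median log2 fold change was 1.65, also with Zbtb16, at 0 in all control libraries and named after its values were seen, set to its bound. Zbtb16 entered the test only through its dexamethasone values, so its call is a description. Fkbp5, a co-chaperone of the glucocorticoid receptor, rose by 4.41 and Sgk1, a serine/threonine kinase, by 4.25 on the log2 scale (limma adjusted p = 1.30e-29 and 1.26e-29). Anxa1, an anti-inflammatory annexin, rose by 1.24 and the metallothionein gene Mt1 by 2.19 (limma adjusted p = 4.02e-19 and 1.80e-23). The receptor gene Nr3c1 was at -0.92 and Cdkn1a at -0.73, under the cut-off, and Nr3c1 was past it after rescaling to the same total (-1.04) and after quantile normalization (-1.12).

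Interferon gamma is a known inducer of Serpina3g. Of 20 genes of its response, 16 were tested, with none called higher, 4 lower and 12 in neither direction by limma, and a median log2 fold change of -0.64. The counts called by edgeR and DESeq2 were also 4. Of the 16 tested, 13 had an unadjusted limma p under 0.05, as did at least 12645 of all 17442 genes tested. The GTPase genes Irgm1, Igtp and Gbp3 fell by 1.78, 1.09 and 1.91 on the log2 scale (limma adjusted p = 1.12e-22, 3.84e-10 and 6.70e-07). Iigp1, also a GTPase gene, fell by 2.91. It entered the test only through its control values, so its call is a description. The kinase genes Jak1 and Jak2 had overlapping groups and were at -0.07 and 0.02, the latter with a sign that changed with the scaling. Igtp shares 8.01% of its exon bases with Irgm2 on the same strand.

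The genes whose profile over the 6 libraries was most like that of Serpina3m, by Euclidean distance between centred log2(normalized count + 1) values, were Fabp4 (distance 0.698), Vmn1r43 (0.967), H2-M9 (0.990), Gm44165 (1.11) and Dusp2 (1.15). Fabp4, a fatty acid carrier of adipocytes and macrophages, had 3, 2 and 2 reads in control replicates 1, 2 and 3 and 1481, 1293 and 1308 reads in dexamethasone replicates 1, 2 and 3. Vmn1r43, H2-M9 and Gm44165 had no read in the control libraries and were at least 115-, 105- and 96.7-fold higher with dexamethasone, against the value of 3 reads per library. For Serpina3n, added after the values were seen, the most alike were Fcrlb (0.375), Greb1 (0.507), Ndst3 (0.667), Ngef (0.677) and Clca3a1 (0.703). These genes were chosen for their likeness, which is a description with no test.

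In bulk samples fewer cells of a type and less RNA per cell cannot be told apart, so markers of cells that could hold Serpina3 transcripts were measured in the same libraries. By the study's text the marrow had been removed and the sequenced cells isolated as Osteocalcin-positive, steps meant to leave out such cells. The liver is the main known source, and the hepatocyte markers with a row (4 of 9) summed to 11.0, 21.5 and 9.67 normalized counts in the 3 control libraries and to 17.2, 16.4 and 2.33 with dexamethasone. Albumin (Alb), chosen after its values were seen, had 1, 5 and 1 reads in control replicates 1, 2 and 3 and none in any dexamethasone library, and Apoa2, the most abundant, had 9, 17 and 10 reads against 14, 6 and 1. Apoa1 and Ahsg, also chosen after their values were seen, had higher totals with dexamethasone. Apoa1 had 2, 0 and 0 reads against 2, 7 and 0, and Ahsg had 0, 0 and 0 reads against 2, 2 and 1. No marker with a row was at 0 in every library, and the other 5 were not analysed here. The part of these cells in the Serpina3 values was not tested.

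Of 8 macrophage markers 5 had a row and 4 were tested, of which Cd68, Cd163 and Mrc1 were called higher with limma in the libraries where Serpina3m and Serpina3n were high. Cd163 and Mrc1 entered the test only through their dexamethasone values, so their calls are a description. Both were chosen after their values were seen, with at most 26 reads in a library, and Cd163 was at 0.98, short of the cut-off, with 5 added in place of 1. Csf1r, likewise chosen, was at -0.67, under the cut-off, and overlaps Hmgxb3 on the other strand over 15.1% of its exon bases. Their sum was 238, 228 and 222 normalized counts in the 3 control libraries and 732, 579 and 666 with dexamethasone, led by Cd68, which rose by 1.78 on the log2 scale (limma adjusted p = 2.20e-14). Adgre1, C1qa and C1qb were not analysed here. Of the 6 pan-hematopoietic markers 5 were tested, with Cd53 (log2 fold change 4.11, limma adjusted p = 6.60e-16) and Itgb2 (3.20, limma adjusted p = 4.91e-17) called higher and Coro1a and Laptm5 lower. These 4 were chosen after their values were seen, and Coro1a was not called by limma without the trend (adjusted p = 0.0634 at a log2 fold change of -1.77) and was at -1.01 without dexamethasone replicate 3. Coro1a and Laptm5 entered the test only through their control values, so their calls are a description. The sum, led by Arhgdib at a log2 fold change of 0.15 (-0.06 after quantile normalization), was 6694, 6955 and 6847 in the control libraries and 8175, 8098 and 8586 with dexamethasone. Ptprc (CD45), which marks all white blood cells and was chosen after its values were seen, had 3, 3 and 2 reads in the control and 3, 5 and 5 in the dexamethasone libraries. The part of these cells in the Serpina3 values was not tested.

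Of 8 adipocyte markers 7 had a row and 2 were tested, with Fabp4 called higher (8.85 on the log2 scale). Fabp4 entered the test only through its dexamethasone values, so its call is a description. The sum of the markers was 237, 237 and 256 normalized counts in the control libraries and 1619, 1640.5 and 1728 with dexamethasone. It was mostly Lipe, chosen after its values were seen, in the control and Fabp4 in the dexamethasone libraries, and Lipe overlaps 4732471J01Rik on the other strand over 15.6% of its exon bases. Adipoq, which encodes the adipocyte hormone adiponectin and was chosen after its values were seen, had 9, 3 and 1 reads in the control and 2, 1 and 1 in the dexamethasone libraries. Cfd, chosen likewise, had 1, 4 and 3 reads in the control and 19, 14 and 15 in the dexamethasone libraries, a ratio corrected for depth of 6.90 with a counting interval of 3.24 to 16.9. Endothelial markers, 6 of 7 with a row and led by Flt1 at 0.30, summed to 6465, 6697 and 6558 normalized counts in the control and 9551, 8414 and 8799.9 in the dexamethasone libraries. Most of the difference between these sums was in Vwf, at 1825 ± 81.8 and 3097 ± 290.1 normalized counts (SD, n = 3), or 0.76 on the log2 scale (limma adjusted p = 4.08e-12), under the cut-off. None of the 5 tested was called by limma, edgeR or DESeq2. An unadjusted limma p under 0.05 was found for 4 of them, and for at least 12645 of all 17442 genes tested. Pecam1 was at 0.74 and Tek at -0.75, and Tek was called lower, at -1.21, without dexamethasone replicate 2. Vwf, Pecam1 and Tek were picked with their values in view. The part of these cells in the Serpina3 values was not tested.

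Neutrophil markers, all 8 with a row and led by S100a9, summed to 1002, 999 and 962 normalized counts in the 3 control libraries and 1131, 1072 and 1239.5 with dexamethasone. None of the 5 tested was called by limma, edgeR or DESeq2. Only 1, S100a8 at 0.87, chosen after its values were seen, had an unadjusted limma p under 0.05. Of all 17442 genes tested, at least 12645 did. T and NK cell markers, 4 of 8 with a row, summed to 16.5, 26.4 and 22.0 normalized counts in the control and 10.49, 6.54 and 5.81 in the dexamethasone libraries. Lck, the most abundant and the 1 tested, fell by 1.44 on the log2 scale, a call lost with 5 added in place of 1. It entered the test only through its control values, so its call is a description. Mast cell markers, 3 of 6 with a row and led by Ms4a2, summed to 3.67, 0 and 1.76 normalized counts in the control and 1.91, 4.36 and 0 in the dexamethasone libraries, and none was tested. The part of these cells in the Serpina3 values was not tested.

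Osteoblast markers were checked against the label of bone cells, and all 9 were tested and called. Lower levels were found for 7, among them Col1a2, the most abundant, which fell by 1.05 on the log2 scale (limma adjusted p = 1.13e-12) and was at -0.995, short of the cut-off, after quantile normalization. Higher levels were found for Spp1 and Dmp1, chosen after their values were seen, with log2 fold changes of 5.25 and 7.16 (limma adjusted p = 1.43e-29 and 2.12e-28), and Spp1 shares 18.8% of its exon bases with Gm42793 on the same strand. Bglap, a gene that encodes Osteocalcin, was chosen likewise and was among the 7 lower genes, at 107 ± 12.9 and 12.2 ± 2.80 normalized counts (SD, n = 3). The sums were 2008600, 2115970 and 2137300 normalized counts in the 3 control libraries and 2142430, 2010490 and 2058470 with dexamethasone. Different genes carried these like sums, since Col1a2 led with 1065430 normalized counts in the control libraries and Spp1, at 33595 there, led with 1279670 in the dexamethasone libraries. Rescaling all libraries to the same total moved the median log2 fold change of all tested genes by -0.11.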

How the data were processed

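RNA was measured in 3 control and 3 dexamethasone libraries made with a stranded mRNA kit. By the study's methods and the submitters' processing notes, the authors used STAR 2.7.10a (notes name GRCm39) for alignment and gene counts and DESeq2 1.36.0 for size factors, so the deposited unit is a signal, the count divided by a size factor. Annotation release and strand setting are not given in the sources used here. Whole reads (tolerance 0.001) were recovered for 100% of values. Of 29616 genes, 28087 had a symbol in GENCODE M21, whose GRCm38 models served for names, lengths, neighbours and overlaps. Genes averaging at least 10 were tested with limma 3.58.1 (R 4.3.3, mean-variance trend, pseudocount 1, Benjamini-Hochberg). On recovered reads edgeR 4.0.16 called 3944 genes and DESeq2 1.42.0 called 3870, against 3894. The pseudocount understates changes of low genes. Named genes with a mean under 10 in 1 group entered the test only through the other group, so their calls are a description. They include Fabp4, Cd163, Mrc1, Orm1, Zbtb16, Itih3, Iigp1, Lck, Coro1a and Laptm5. Alternatives changed the pseudocount, filter, scaling, tool, block and libraries. Methods were tested on simulated data. Sequences were aligned with Biopython 1.88. P-values measure only the spread between these libraries, which may be technical. As a chi-square per degree of freedom, dexamethasone replicate 3 was at 29.6 and 20.5 from replicates 1 and 2. These 2 were at 7.42 from each other, and the control libraries at 3.52 to 8.25. The counting intervals leave out this spread.

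The members and lists were chosen with earlier results of these data known. Named genes were the Serpina3 genes, up to 4 called and 2 uncalled genes of highest mean per list, the most abundant marker per cell type and markers at 0 in every library, and the 5 genes nearest to Serpina3m, also the member of highest mean. Values were known when any further gene was picked. A gene that is counted in the lists is not reported here by name.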

Additional observations from a re-analysis of the deposited data

How the results depend on the processing

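Serpina3m and Serpina3n were higher with dexamethasone under all 17 alternatives run, at log2 differences of 6.84 to 10.01 and 5.20 to 5.94. The changed filters, limma without the trend and the replicate block cannot alter these differences and left them as they were. Under the 10 alternatives that gave a value for them, Serpina3h (2.14 to 5.13) and Serpina3i (0.97 to 3.21) were higher and Serpina3c (-2.62 to -1.08) lower. With 0 reads in all control libraries, Serpina3h and Serpina3i could not turn. Since the family was picked on this contrast, these ranges are a description. The members called were 2 in the analysis reported and 5 without a filter, with limma and also with edgeR on recovered reads, an alternative chosen after seeing the data, beside 22.3%, 18.0% and 17.2% of all genes tested. Genes called went from 3894 to 2170 at a mean of at least 100, where fewer are tested, and to 12645 with the adjusted p alone. With the adjusted p alone, calls were 62 over the lists (35 reported), 11 in other serpins (5), 2 in proteases (0) and 12 in interferon gamma genes (4). At a mean of at least 100 the interferon gamma calls were 2, with fewer genes tested. Without a filter, 1 other clade A serpin (Serpina1f) and 1 protease (Ctss, lower), both chosen after their values were seen, were called. The lowest share of specific positions among the members with a row was 89.0% at 75 bases, 78.1% at 50, 93.9% at 100 and 99.7% at 150. Of 73 tested genes followed in this way, 60 kept call and direction under every alternative run. Nr3c1 and Tek gained a call and Col1a2, Lck, Il11, Cd163 and Coro1a lost theirs under the settings given with them, and 6 uncalled genes near 0 changed sign. Ctsb was at -0.11 at the same total, -0.0714 with quantile normalization, -0.0213 with edgeR and -0.00416 with DESeq2, Jak2 at -0.0936, -0.184 and -0.00434 under the first 3 of these, and Il6st at -0.0224 and -0.0368 under the first 2. S100a9 was at -0.0190 at the same total, and Arhgdib and Glrx5 were at -0.0569 and -0.0267 with quantile normalization. Leaving out a library gave -0.0221 to 0.0444 for Ctsb, -0.0258 to 0.0582 for Jak2, 3878 to 3910 genes called and 2 members called each time. Where no fewer genes were tested, the cause was not tested. With the replicate number as a replicate block, 3897 genes, 2 members and 35 list genes were called. Deviations of same-numbered libraries correlated at -0.0999, -0.105 and -0.0199, so the numbers were not taken to pair the libraries.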
